A study of Mus musculus with 15 samples.

Results

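The sites described here are stretches of open chromatin that every juvenile WT microglia library held and no juvenile IRF8KO library held, and they are called lost sites below. They were found in peak lists from ATAC-seq, an assay that reads where a transposase can insert into DNA. They were selected on the presence and absence of called peaks in 9 lists. A lost site is an interval in the list of WT postnatal day 14 (P14) replicate 1 on chromosomes 1 to 19 or X. It overlaps by at least 1 bp an interval in each of the other 3 WT lists at P9 and P14, and no interval in the 5 IRF8KO lists of those ages. There were 4586 lost sites among the 80035 intervals that all 4 WT lists shared, or 5.73% of them, and among 109389 intervals of the reference list. Because the rule used the IRF8KO and WT lists at P9 and P14, the difference between those genotypes at these sites is how they were chosen and carries no test. For comparison, 58677 of the shared intervals were in all 5 IRF8KO lists (kept sites) and 16772 were in 1 to 4 of them (mixed sites).

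All libraries came from flow-sorted microglia of C57BL/6 mice. WT mice gave 2 libraries at P9 and 2 at P14, and IRF8KO mice gave 3 at P9 and 2 at P14, all untreated. At 10 months, 2 libraries came from WT mice and 4 from 5xFAD mice, a line with human amyloid transgenes that forms plaques. The 5xFAD cells were sorted as negative or positive for MetoxyX04, a dye that binds amyloid, with 2 libraries each. The WT mice at 10 months also received the dye, and no IRF8KO library was made at that age. The labels give neither the allele of IRF8KO nor the animals behind each replicate, so a p-value here speaks only of the spread between libraries, which may be technical.

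Microglia are the resident macrophages of the brain. IRF8, a myeloid transcription factor, binds DNA weakly alone and usually with a partner. With the ETS factor PU.1 it binds composite ETS-IRF elements, with AP-1 factors it binds AP-1-IRF elements, and with other IRF proteins it binds interferon-stimulated response elements (ISRE). Sites of these factors lie at gene starts and, more often, at distal enhancers that set the identity of a cell.

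Lost sites were rare at gene starts, and 56 of the 32585 RefSeq promoter windows (GRCm38.p6, the assembly mm10 names; 250 bases before to 50 from the start onward) were touched by one. These windows belonged to 54 genes, 32 of the windows to protein-coding genes and 24 to long non-coding RNAs. The 6 stretches below are parts of windows inside a lost site. They are examples and not typical, since most of the 56 windows match none of the 3 patterns marked in them. They were chosen after the matches and values were seen. Capitals mark matches to the ETS-IRF composite (GGAA and GAAA with 2 bases of any kind between), the ISRE (GAAA and GAAA with 2 bases between) or the PU.1 core (GAGGAAGT), on either strand. The composite and the ISRE share the letters GAAA, and so a sequence can match both. Cybb encodes the catalytic subunit of the phagocyte oxidase, and its stretch, chrX:9469312-9469414 on the minus strand, ran through the start and held an ISRE match and a composite match. Phf11d, a PHD finger gene, had the best-ranked lost site of these promoters, with a composite match across the start in chr14:59365486-59365610, minus strand. Ranbp3l, which encodes a Ran-binding protein, had an ISRE match near the far end of its window, in chr15:8967699-8967818, plus strand. Gimap1, a GTPase gene of the immune system, had a PU.1 core just past its start in chr6:48738927-48739055, plus strand. Gm3134 is a non-coding RNA whose start lies inside Sall1, and the stretch chr8:89040993-89041112, plus strand, opened with a PU.1 core. Ly86 encodes the secreted partner of the receptor Cd180, and chr13:37345225-37345344, plus strand, is given as a stretch without any of the 3 patterns.
Cybb: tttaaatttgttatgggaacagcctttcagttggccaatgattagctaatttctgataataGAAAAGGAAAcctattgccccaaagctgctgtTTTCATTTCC
Phf11d: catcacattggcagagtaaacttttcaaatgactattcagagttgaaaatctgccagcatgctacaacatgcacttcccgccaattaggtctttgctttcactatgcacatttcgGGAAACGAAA
Ranbp3l: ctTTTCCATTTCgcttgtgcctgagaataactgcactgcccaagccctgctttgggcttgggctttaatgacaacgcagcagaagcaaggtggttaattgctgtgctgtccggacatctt
Gimap1: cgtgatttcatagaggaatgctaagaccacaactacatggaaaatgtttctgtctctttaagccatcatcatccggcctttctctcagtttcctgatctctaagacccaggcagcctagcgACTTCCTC
Gm3134: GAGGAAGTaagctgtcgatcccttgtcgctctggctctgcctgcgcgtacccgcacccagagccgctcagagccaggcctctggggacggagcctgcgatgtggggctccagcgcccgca
Ly86: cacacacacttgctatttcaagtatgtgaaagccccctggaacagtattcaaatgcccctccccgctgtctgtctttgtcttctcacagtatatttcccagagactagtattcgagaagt

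Across the 56 windows, the ETS-IRF composite matched in 4 (7.14%), against 2.32% of 12730 windows touched by a kept and no lost site and 2.74% of all windows. The ISRE matched in 3 (5.36%, against 2.97% and 3.45%) and the PU.1 core in 5 (8.93%, against 3.51% and 3.22%). Larger counts came from shorter patterns. The RUNX pattern TGTGGT matched in 14 windows (25.0%, against 12.2% and 16.6%), and the SMAD pattern CAGACA in 20 (35.7%, against 15% and 20.8%). The C/EBP pattern TTGCNNAA matched in 7 (12.5%, against 7.92% and 10.9%), and the MEF2 pattern, CTA and TAG with 4 bases between, in 3 (5.36%, against 2.84% and 3.71%). The E-box TCACGTGA matched in 1 (1.79%, against 1.93% and 0.982%), and the NF-kB pattern, GGGA and TTTCC with 1 base between, in 0 (against 0.416% and 0.414%). AP-1 and CTCF patterns were less frequent in the lost windows than in either other set. The AP-1 pattern TGANTCA matched in 1 window (1.79%, against 4.45% of kept and 7.85% of all), and the CTCF pattern (CC, 3 bases of any kind, AG, 2 bases, GGC) in 2 (3.57%, against 13.8% and 8.67%). Neither AP-1-IRF pattern, TTTC and TGANTCA with 4 bases between or GAAA directly before TGANTCA, matched in any of the 56, and they matched in 0.120% and 0.126% of all windows. The AP-1 letters are part of both. Median GC content was 51.7% in the lost windows, 61.7% in the kept and 53.0% in all. Its part in these shares was not tested. Gm35383 and Gm32791 each had 2 windows that nearly coincide. The same C/EBP match of Gm35383, and the same RUNX and SMAD matches of Gm32791, were counted in both windows. Windows can reach beyond a lost site, and so can matches. Within a lost site lay 2 of 4 composite, 3 of 5 ISRE and 5 of 5 PU.1 matches, but 4 of 14 RUNX, 16 of 25 SMAD and 1 of 7 C/EBP matches. A match is a run of letters, not a bound site, and 56 windows are a small and unusual part of 4586 sites.

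At these promoters the authors' fold enrichment, which describes a peak within its own list and is not compared between lists, was 23.0 and 26.0 at Phf11d in WT at P9 and 31.7 and 30.0 at P14. At 10 months its site was present in all 6 lists, with folds of 15.1 and 24.0 in WT, 20.4 and 19 in X04-negative and 6.10 and 4.05 in X04-positive cells. The Ly86 promoter site had folds of 9.08, 8.94, 8.61 and 9.23 in the 4 juvenile WT lists and was also present in all 6 lists at 10 months. The Gimap1 site had folds of 14.8, 16.6, 19.95 and 23.7 in juvenile WT. It was in both WT and both X04-negative lists and in neither X04-positive list at 10 months. Weaker lost sites touched the promoters of 3 further genes, singled out after their values were seen. The Cybb site had folds of 3.35 and 3.78 at P9 and 7.06 and 7.01 at P14, and it was in 1 of 2 WT, 2 of 2 X04-negative and 0 of 2 X04-positive lists. The promoter of Ifnb1, the interferon beta gene, had folds of 5.12, 3.49, 4.83 and 5.28 and was in all 4 WT and X04-negative lists and in no X04-positive list. Helz2, a helicase gene, had folds of 5.10, 6.66, 7.91 and 5.03.

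Lost sites were weaker and narrower peaks than kept sites. Peaks were ranked by the authors' −log10 p within a list, so rank 1 is the most significant. The median rank in the reference list was 75274.5 for lost, 76774.5 for mixed and 34363 for kept sites. Median width was 264 bp for lost, 267 bp for mixed and 440 bp for kept sites, and median fold enrichment was 5.86, 5.85 and 11.7. Of the lost sites, 412 (8.98%) were within rank 30000, against 5.35% of the mixed and 44.4% of the kept. In the other WT lists, 452 and 496 lost sites at P9 and 467 at P14 were within rank 30000. Of the 2255 sites just outside the rule, with a peak in exactly 1 IRF8KO list, 595, 510 and 567 were in the 3 P9 lists and 238 and 345 in the 2 P14 lists. That single IRF8KO peak had a median −log10 p of 4.82, while the reference peak had 13.6 at those sites and 15.2 at lost sites. An IRF8KO interval lay within 200 bp of 349 lost sites (7.61%), and the median distance to the nearest one was 1759.5 bp.

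Both ages were needed for the rule, and they weighed differently on it. Of the shared sites, 5246 were absent from the 3 IRF8KO lists at P9, and 10621 from the 2 lists at P14. The lost sites made up 87.4% of the P9 set and 43.2% of the P14 set. The IRF8KO lists at P14 were also the weaker ones: the −log10 p at rank 30000 was 26.6 and 22.8 there, against 78.3, 73.4 and 80.6 in IRF8KO at P9, 39.1 and 54.3 in WT at P9, and 61.8 and 68.2 in WT at P14. The IRF8KO P9 lists were thus at least as strong as the WT lists by this measure. The part of list strength in the difference between the ages was not tested.

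Lost sites lay away from gene starts. Among the sites with a promoter table for their chromosome, 165 of 4444 lost sites (3.71%) had their summit within 1 kb of a start site, against 21% of kept and 8.80% of mixed sites. The median distance to a start site was 25.0 kb for lost and 12.7 kb for kept sites. The same was seen at like peak strength: within rank 10000 of the reference list, 1 of 63 lost sites (1.59%) and 4116 of 9215 kept sites (44.7%) were near a start. That 1 site is the one at the Phf11d promoter. Lost sites were inside a protein-coding gene about as often as kept sites, at 58.4% and 56.7%. They lay more than 50 kb from any protein-coding gene at 16.7% and 8.40%. The annotation gives no exons here, so exon and intron were not separated. Lost sites also had lost neighbours: of shared sites adjacent to a lost site within 5 kb, 15.9% were lost too, and within 50 kb 16.0%, against 5.73% of all shared sites. The lost share was 0.671% within rank 10000 and 14.2% at ranks 120001 to 130000, and neighbours were not compared at like rank. By chromosome the lost share ran from 3.83% on chromosome 19 to 7.04% on chromosome 8, which holds Sall1.

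**Figure D1:**
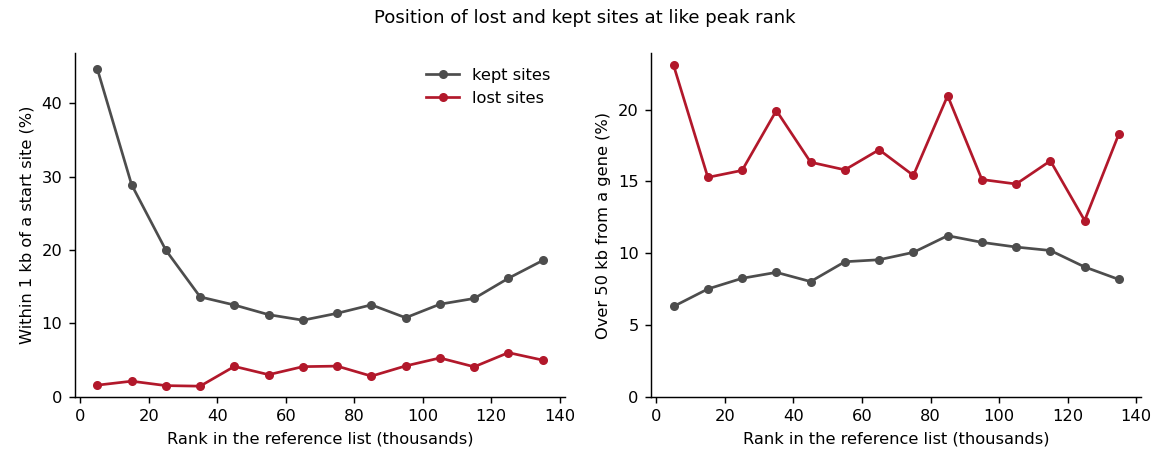
The plots give, for lost (red) and kept (grey) sites in bins of 10000 ranks of the reference list, the percent within 1 kb of a start site (left) and the percent more than 50 kb from a protein-coding gene (right). Near the top of the list 1.59% of lost and 44.7% of kept sites were at a start, and in every bin shown lost sites were less often at a start and more often far from a gene.

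The strongest lost sites lay near genes of several kinds. The best mean rank over the 4 WT lists, 503.5 ± 84.7 (SD, n = 4), belonged to chr2:118804467-118804906, 9.28 kb from the kinetochore gene Knstrn. Its folds were 30.9, 35.0, 35.0 and 35.5 in juvenile WT. At 10 months they were 27.4 and 32.3 in WT, 34.6 and 26.5 in X04-negative and 11.5 and 4.02 in X04-positive cells. The next, chr16:26041127-26041909 inside P3h2, a collagen prolyl hydroxylase gene, ranked 725.2 ± 227.3. It was followed by chr9:90033689-90034404, 7.14 kb from Rasgrf1, an exchange factor for Ras, and by chr2:97504810-97505308 inside Lrrc4c, a netrin-G ligand gene. The fifth, chr3:117319698-117320229, lay inside Plppr4, a gene of the lipid phosphatase-related family. These 5 were present in all 6 lists at 10 months and are also the 5 strongest lost sites of that kind. The other 5 of the strongest 10 were near Sult1c1, Mrap2, Lsm14a, Rasgrf2 and Fgf9, the last with its site 208.6 kb from the gene. All were in the 6 lists at 10 months except the site 58.5 kb from Lsm14a, an RNA-binding protein gene, which was in 5. The mean ranks of these 10 sites ran from 503.5 to 2490.5, so they are among the most significant peaks of the juvenile WT lists.

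Sall1, the zinc-finger transcription factor that helps define microglial identity, shared the highest number of lost sites with Magi1, at 17 each, and 8 of those at Sall1 were within 20 kb of the gene against 17 at Magi1. The 17 lost sites nearest to Sall1 were among 19 shared ones (89.5%), against 5.73% overall. They ran from 90.4 kb upstream of its start (chr8:89044162, minus strand) to 107.3 kb downstream. Of them 6 were upstream, 3 inside the gene and 8 beyond its end. The strongest, chr8:89134182-89134923, lay 90.4 kb upstream and had folds of 17.4 and 16.0 at P9 and 22.0 and 20.6 at P14. Its folds at 10 months were 11.7 and 16.3 in WT, 16.2 and 13.2 in X04-negative and 5.09 in 1 of 2 X04-positive lists. A second strong site, chr8:89055838-89056308, lay 11.8 kb upstream and was present in all 6 lists at 10 months. The shared interval nearest the start, chr8:89042612-89043897, was a kept site with its summit 0.456 kb inside the gene. An interval overlapped it by at least 1 bp in all 15 lists, and its folds were 6.38, 7.21, 6.00 and 7.41 in juvenile WT. No interval covered a RefSeq start site of Sall1 in IRF8KO P9 replicates 1 and 2, while every other list had such an interval. The remaining site, 87.5 kb upstream, was in 1 IRF8KO list at P9. At 10 months the 17 sites numbered 12 and 11 in the WT lists, 12 and 12 in the X04-negative lists and 3 and 2 in the X04-positive lists. Of all lost sites, 45.7% and 52.7% were present in the WT lists, 61.9% and 59.1% in the X04-negative lists and 18.8% and 17.6% in the X04-positive lists.

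**Figure D2:**
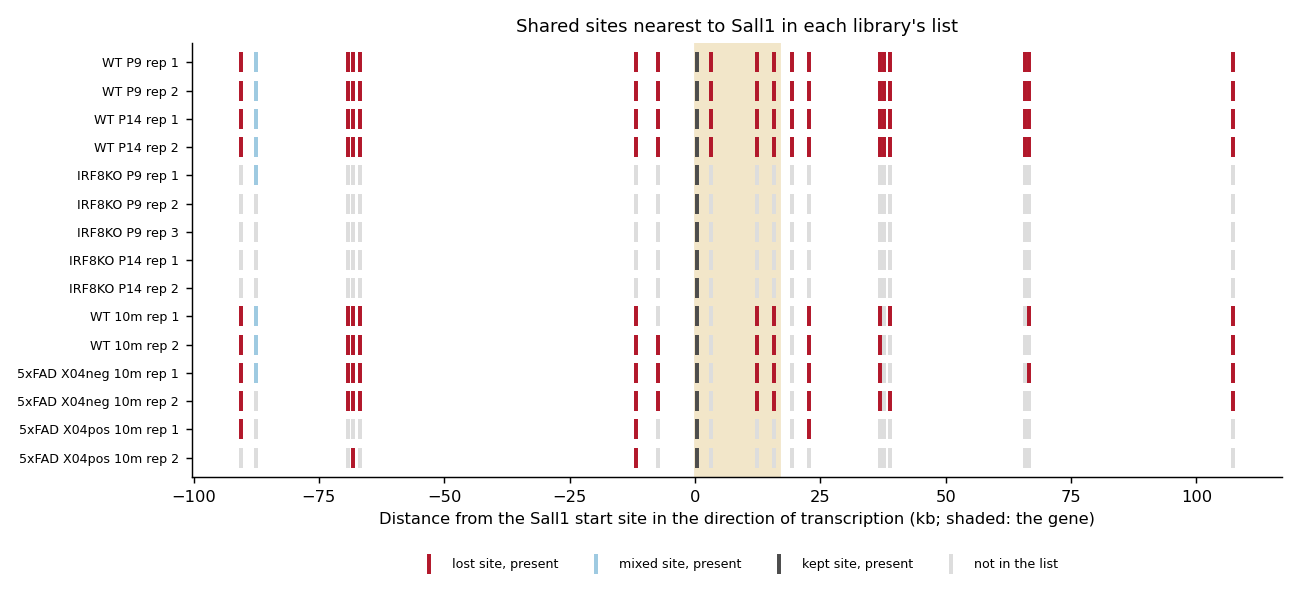
Each row is a library and each tick a shared site nearest to Sall1, placed by its distance in kb from the start site along the direction of transcription; red, blue and dark ticks are lost, mixed and kept sites present in that list, and pale ticks are sites not in it. The kept interval nearest the start site is dark in all 15 rows, where dark means an overlap of at least 1 bp. The 17 red sites are absent from the 5 IRF8KO rows by the rule. At 10 months 11 or 12 of them are present in WT and X04-negative rows and 3 or 2 in X04-positive rows. Over all lost sites the shares were 45.7% and 52.7% in WT, 61.9% and 59.1% in X04-negative and 18.8% and 17.6% in X04-positive lists.

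Lost sites were spread over many genes beside Sall1. Within 100 kb, 4094 lost sites had a nearest protein-coding gene, 2662 genes in all, or 16.7% of the 15908 genes with a shared site. Of these genes 1886 had a single lost site, 67 had 5 or more and 9 had 10 or more. Long genes with many sites make up most of the top of the list. Magi1, a junction scaffold gene, had 17 of 50 shared sites lost, Tiam1, an exchange factor for Rac, 15 of 47, and Plxdc2, a plexin-domain gene, 15 of 32. Kcnma1, the pore subunit of the large-conductance potassium channel, had 15 of 27. Ptprm, a receptor phosphatase, had 12 of 29, Frmd4a 11 of 64, Snx29 11 of 56 and P3h2 10 of 18. Cacna1e, a voltage-gated calcium channel gene, had 9 of 14. Of 1964 genes with at least 10 shared sites, 6 had over 50% of them lost. Besides Sall1, Kcnma1, P3h2 and Cacna1e these were Pcp4, a calmodulin regulator gene (9 of 13), and Grik4, a kainate receptor gene (8 of 13), both named after their values were seen. Nearest gene is a matter of distance, and none of these sites is shown to act on the gene named.

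**Figure D3:**
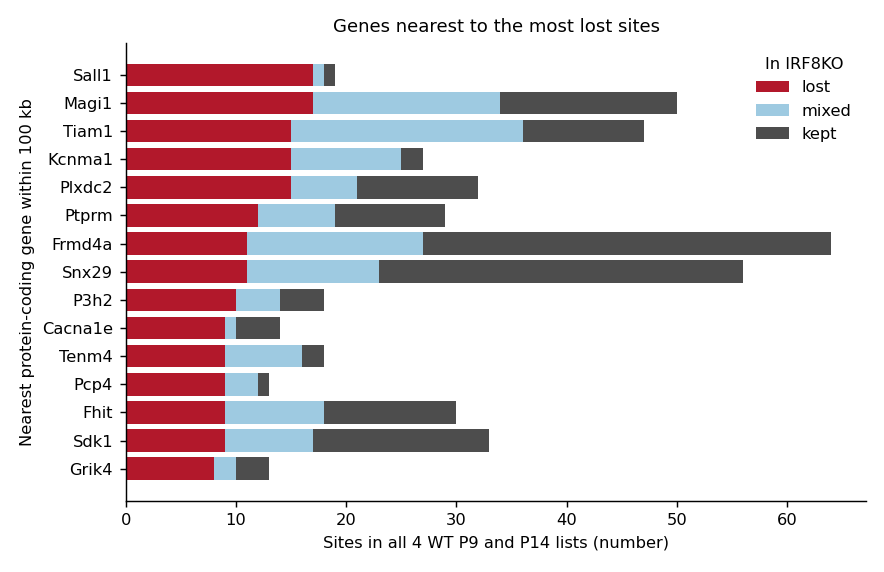
Bars count the shared WT sites nearest to each of the 15 genes with the most lost sites, split into lost (red), mixed (blue) and kept (dark). Sall1 has 17 of 19 lost, while Frmd4a and Snx29 have 11 lost of 64 and 56.

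Irf8 itself had 31 shared sites, of which 2 were lost, and both were weak. The lost site 38.0 kb downstream of the start was in none of the 6 lists at 10 months. The one 95.8 kb downstream was in both X04-negative and both X04-positive lists and in neither WT list. The stronger list entry at its start, chr8:120735865-120736559, was kept in all 5 IRF8KO lists and present in all 6 lists at 10 months. Open chromatin at this gene does not check the knockout, since a deletion or a truncated transcript need not close it.

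The lost share of the lists of microglial and macrophage functions ran from 0% to 12.1%, around the 5.73% of all shared sites. Lost shares by gene list, here and below, were not compared at like rank. For the transcription factors of the myeloid lineage, 35 of 507 shared sites were lost (6.90%), near the 5.73% of all shared sites. They lay at 14 of 24 genes, while 16.7% of all genes had a lost site. A share of genes grows with the number of shared sites per gene and was not adjusted for it. The 14 genes included Bach2, a repressor (7 of 67 sites), Etv6, an ETS repressor (4 of 45), Mef2c (3 of 33), Bach1 (3 of 18), Smad3, a mediator of TGF-beta signalling (3 of 26), Mef2a (2 of 16) and Mef2d (1 of 9). The strongest of these, chr4:32189702-32189981, lay 48.6 kb from Bach2. It was in both WT and both X04-negative lists and in neither X04-positive list at 10 months. For genes of homeostatic microglial identity, 29 of 240 sites were lost (12.1%), but 12 of 221 (5.43%) without Sall1, close to the 5.73% of all shared sites. The others in this list, named after their values were seen, included Cx3cr1, the fractalkine receptor (3 of 12), and P2ry12, a purine receptor of surveying microglia (2 of 9).

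Lists of immune functions had lost shares on both sides of the 5.73% of all shared sites. In the IRF family and partner list 5 of 144 sites were lost (3.47%), in antigen presentation 3 of 90 (3.33%), and in complement and phagocytosis 3 of 142 (2.11%). None of 53 sites at the 17 measured genes of the interferon response list was lost. That list is a selection of genes. The lost sites at the Phf11d, Helz2 and Ifnb1 promoters are not among these 53. Marco, a scavenger receptor gene, had 2 of 12 lost, and the better one, chr1:120510184-120510794 at 5.49 kb from the gene, ranked 10116.8 ± 914.7 over the 4 WT lists. Among chemokines and cytokines 9 of 114 were lost (7.89%), with Il12b at 4 of 14, Il6 at 2 of 8 and the chemokine gene Ccl6 at 2 of 9. Toll-like receptors and adaptors had 7 of 124 lost (5.65%) and lysosome genes 6 of 131 (4.58%), among them Ctsk, a cathepsin gene (1 of 2). Of genes that rise in disease-associated microglia 9 of 203 sites were lost (4.43%), with Cd9, a tetraspanin gene, at 2 of 21. Border-associated macrophage genes had 3 of 55 (5.45%).

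Of the marker lists of other brain and blood cells, 2 had shares well above the 5.73% of all shared sites, on few sites, and the other 4 were near it. Endothelial and mural genes had 9 of 69 sites lost (13%), among them Cdh5, the cadherin of vessel junctions (4 of 13), and Flt1, a growth factor receptor (3 of 17). Astrocyte genes had 7 of 66 lost (10.6%), with the glutamate transporters Slc1a3 (5 of 26) and Slc1a2 (2 of 8). Neuron genes had 3 of 54 (5.56%), all at Bcl11a (3 of 23). Oligodendrocyte genes had 4 of 55 (7.27%), monocyte and neutrophil genes 2 of 29 (6.90%), with Vcan, a proteoglycan gene, at 1 of 7, and lymphocyte genes 1 of 20 (5.00%). As a check of the sort, an interval covered the start site of 11 to 15 of 16 microglial identity genes in each of the 15 libraries. The ranges were 2 to 6 of 9 neuron, 1 to 5 of 7 astrocyte, 0 to 2 of 7 oligodendrocyte and 0 to 3 of 7 endothelial and mural genes. For lymphocyte genes the range was 1 to 3 of 7, and for monocyte and neutrophil genes 1 to 3 of 13. Without a called peak at the start in any of the 15 libraries were 3 of the 9 neuron genes, 2 of 7 astrocyte, 3 of 7 oligodendrocyte, 3 of 7 endothelial and mural, 4 of 7 lymphocyte and 7 of 13 monocyte and neutrophil genes. Among them were Rbfox3, Gfap, Olig2, Cldn5 and Cd3e, named after their values were seen. Whether cells of other types bear on the lost sites near such genes was not tested.

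The lists at 10 months played no part in the rule, and show how many lost sites had a peak in adult microglia that carry Irf8. In WT they were present at 45.7% and 52.7% (2095 and 2417 of 4586 sites), and in X04-negative 5xFAD cells at 61.9% and 59.1%. In X04-positive cells they were present at 18.8% and 17.6%. The 3 groups did not overlap. Over all shared sites the shares were 72.1% and 76.5% in WT, 80.3% and 76.3% in X04-negative and 46.3% and 43.1% in X04-positive cells. There WT and X04-negative overlapped, and X04-positive was again the lowest. The differences that follow are over lost sites. X04-negative minus WT was 11.3 percentage points, X04-positive minus X04-negative was −42.3 and X04-positive minus WT was −31.0. Each two-sided exact permutation test gave p = 0.333, the smallest that 2 against 2 libraries allow, and the same after adjustment over the 3 pairs. For the 4 5xFAD libraries against WT the difference was −9.86 points (exact permutation p = 0.733, 4 against 2 libraries), and the WT values lay between those of the 5xFAD groups. X04-positive lists were the weakest: −log10 p at rank 30000 was 6.29 and 6.04 there, 18.6 and 23.1 in WT and 24.3 and 19.9 in X04-negative cells. They were not shorter, with 194399 and 187543 summits against 147906 and 126070 in WT. List strength and amyloid uptake cannot be told apart in these groups.

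Kept sites were also least often present in X04-positive cells, at higher levels throughout, and their WT and X04-negative values overlapped. They were present at 82.2% and 85.8% in WT, 88.4% and 84.9% in X04-negative and 56.1% and 52.0% in X04-positive cells. Over kept sites X04-negative minus WT was 2.69 points, X04-positive minus X04-negative was −32.6 and X04-positive minus WT was −29.9. Part of the gap to lost sites went with peak strength. Kept sites weighted to the ranks of the lost sites were present at 60.2% and 66.0% in WT, and the difference of lost from kept sites was −14.6 and −13.3 points. In X04-negative cells it was −9.43 and −5.75 points, and in X04-positive cells −16.0 and −14.7 points. Lost sites were thus lower in 6 of 6 libraries at like rank. The gap was smaller in X04-negative cells than in WT by 6.35 points, with groups that did not overlap. For the same difference at like rank, X04-positive minus X04-negative was −7.73 points, and X04-positive minus WT was −1.38 points. Each of these 3 contrasts had an exact permutation p of 0.333, the smallest possible.

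**Figure D4:**
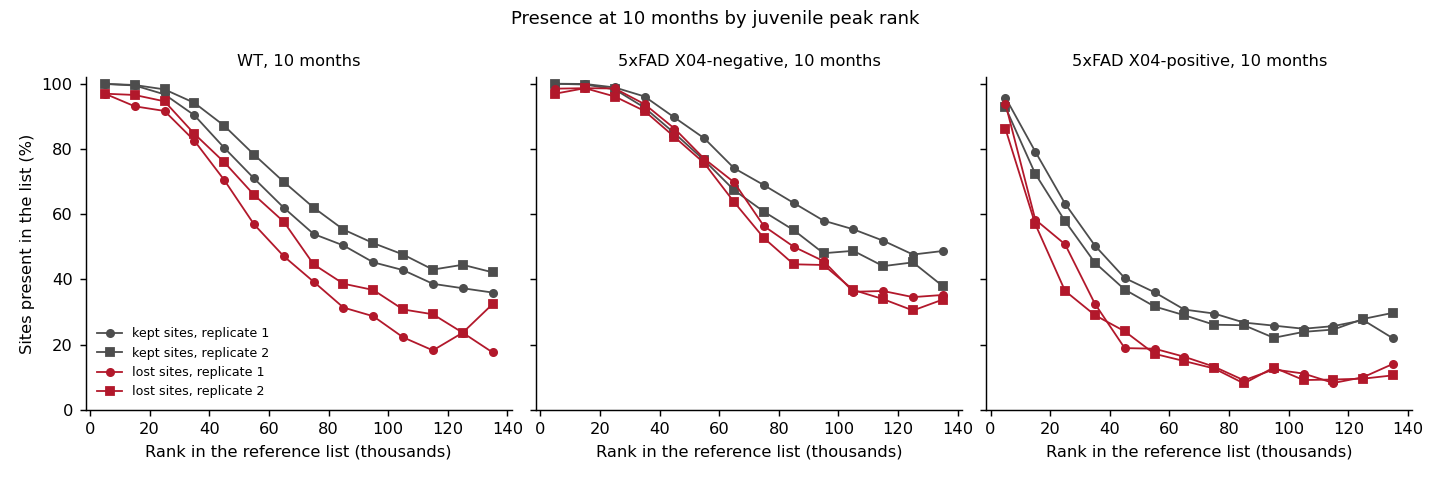
Each panel is a group at 10 months, with the percent of sites present in each of its 2 lists (circles replicate 1, squares replicate 2) against rank in the reference list in bins of 10000, for lost (red) and kept (grey) sites. In the top bins over 90% of lost sites were present in WT and X04-negative lists, and below them the red lines run under the grey ones most clearly in WT and X04-positive panels.

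Strong lost sites nearly all had a peak in adult WT microglia. Of the 412 within rank 30000, 93.0% and 95.6% were present in WT, 98.5% and 97.1% in X04-negative and 60.2% and 51.5% in X04-positive cells. Kept sites within rank 30000 stood at 98.8% and 99.3%, 99.6% and 99.4%, and 80.4% and 75.4%. The difference of X04-positive from X04-negative cells over strong lost sites was −42.0 points (exact permutation p = 0.333, the smallest possible). In the lists at 10 months themselves, 464 and 524 lost sites were within rank 30000 in WT, 615 and 636 in X04-negative and 201 and 182 in X04-positive cells. The same counts are not given for kept or all shared sites. Whether the differences between groups in these counts are particular to lost sites was therefore not tested.

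Presence at 10 months did not rise steadily with the number of IRF8KO lists that held a site. For sites in 1 IRF8KO list, the 6 libraries had 42.4% and 48.3% (WT), 55.9% and 49.0% (X04-negative) and 18.8% and 17.8% (X04-positive). For sites in 2 they had 43.7% and 49.8%, 53.4% and 49.6%, and 19.9% and 17.4%, and for sites in 3 they had 40.6% and 46.9%, 54.3% and 47.2%, and 18.6% and 17.1%. For sites in 4 they had 46.9% and 53.4%, 59.9% and 53.1%, and 20.6% and 20.1%. Lost sites, in 0 lists, were within a few points of these in the WT and X04-positive libraries. In the X04-negative libraries they stood at 61.9% and 59.1%, above each of the classes of 1 to 4 lists in both replicates. The median reference ranks of sites in 0, 1 and 4 lists were 75274.5, 79355 and 73698.5, and that of kept sites, whose shares were higher, was 34363.

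**Figure D5:**
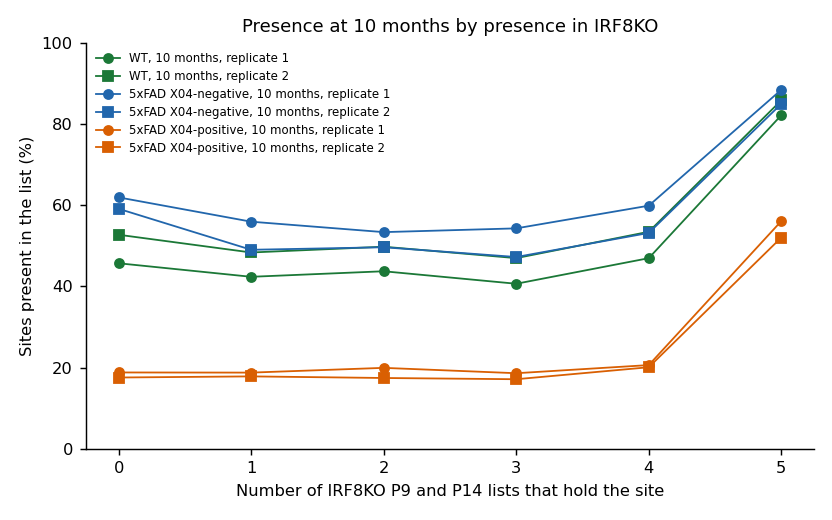
The percent of shared WT sites present in each library at 10 months is plotted against how many of the 5 IRF8KO lists hold the site; colours are groups and symbols replicates. From 0 to 4 lists the X04-positive lines are nearly level, the X04-negative lines dip between and the WT lines dip less, and all rise at 5. At 0 lists the X04-negative libraries stand at 61.9% and 59.1%, WT at 45.7% and 52.7% and X04-positive at 18.8% and 17.6%.

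Site by site, 1717 lost sites (37.4%) were in both WT lists at 10 months, against 66.1% of all shared sites and 50.9% of kept sites at like rank. In neither WT list were 1791 (39.1%, against 17.4% and 24.6%). All 6 lists held 292 lost sites (6.37%, against 30% and 15.1%), and none held 893 (19.5%, against 7.8% and 10.3%). Sites absent from all 6 were mostly weak, with a median rank of 93036, and 3 of them were within rank 30000 of the reference list. By mean rank over the 4 WT lists, the first of these 3 was chr10:19291069-19291856, 65.3 kb from Olig3, a transcription factor gene of neural progenitors. Its folds were 18.6 and 25.4 at P9 and 27.8 and 29.9 at P14. The second, chr14:71208911-71209529, lay 229.4 kb from Gfra2, a receptor gene for neurturin, and had folds of 12.3 and 19.4 at P9 and 29.1 and 28.3 at P14. The last of the 3 was chr10:118140223-118140504 near Mdm1, behind the sites at Vwa5a and Ywhaq by mean rank, with folds of 4.59, 5.46, 7.41 and 5.57. The other 2 of the best-ranked 5 were near Ywhaq and in Vwa5a, and the latter ranked between 11171 and 105737 in the 4 WT lists.

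Changes between the adult groups ran mainly in the direction of the group shares. In both X04-negative lists and neither WT list were 300 lost sites (6.54%, against 2.79% of shared sites and 3.8% of kept sites at like rank), and 55 showed the reverse (1.20%, against 1.21% and 1.89%). In both X04-negative and neither X04-positive list were 1282 (28.0%, against 20.4% and 21.1%), and 12 showed the reverse (0.262%, against 0.284% and 0.550%). In both WT and neither X04-positive list were 889 (19.4%, against 17.6% and 17.9%), and 23 showed the reverse (0.502%, against 0.449% and 0.809%). All 3 reverse shares were below those of kept sites at like rank. These are counts of sites in 2 lists each, without a test.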

How the data were processed

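Open chromatin was measured by ATAC-seq in 15 libraries of sorted mouse microglia in 7 groups. Nuclei were tagmented with the Nextera kit after isolation without enzymes, per the labels' protocols. Bowtie2, MACS2 2.2.7.1, deepTools, bcl2fastq and mm10 are named in the submitters' processing notes, without order or settings. The authors deposited 1 peak list per library, in narrowPeak form: a whole-number score, the fold enrichment at the summit (a ratio), the −log10 p and −log10 q of the peak caller, and the summit's offset in bp. Lists held 126070 to 194399 summits on 109396 to 189096 unique intervals. Read depth was not analysed here, so intervals for counting error are not given, and list strength was described by the −log10 p at rank 30000, from 6.04 to 80.65. Because weak peaks reach or miss a list by its threshold, absence means no called peak and not closed chromatin.

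Lists were intersected with numpy 2.4.6 and pandas 2.3.3 in Python 3.11.15, with at least 1 bp as overlap, on chromosomes 1 to 19 and X. The code was tested on simulated intervals with known answers. Presence at 10 months was compared between groups by two-sided exact permutation tests over libraries, adjusted by the Benjamini-Hochberg method over 3 pairs. Comparison at like rank used bins of 10000 ranks. Genes were the nearest protein-coding gene of RefSeq GRCm38.p6 within 100 kb. Start sites and promoter sequences were RefSeq's (GRCm38.p6). Sites named were the 10 lost sites with the best mean rank, and the best 5 in all and in none of the 6 lists at 10 months. Genes named were the 10 with the most lost sites, up to 20 list genes in order of their best site, Sall1 and Irf8. Members and lists were chosen with earlier results of these data known. Planned motif counts around summits need a genome, which was not used here, and promoter windows took their place. Chromosome 18 entered the counts of sites but not those of start sites, and nothing on it is named.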

Additional observations from a re-analysis of the deposited data

How the results depend on the processing

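The number of lost sites stayed within 1.5 times of 4586 under every alternative run: 5345 with 0.5 of the interval covered as overlap, 4711 with a summit within 200 bp, 4563 to 4709 with the intervals of another WT list as reference, 5150 with lists cut to the shortest, 4297 with a −log10 p of at least 5, and 4824 to 5843 leaving out a library. Of the 4586 sites, 3837 remained with the lists cut. By the rule, leaving out a list can only add sites, and the −log10 p limit can only remove them. The reference list was not left out. The shares present at 10 months moved with the rule for presence, and the order of the groups stayed. In WT, X04-negative and X04-positive cells they were 43.0%, 54.3% and 9.82% with 0.5 of the interval covered, 23.5%, 29.0% and 7.16% with lists cut to 50000, and 67.4%, 78.3% and 25.5% over the 50% of lost sites with the better −log10 p. With lists cut to the shortest they were 56.1% in X04-negative and 14.1% in X04-positive cells, and with a summit within 200 bp 16.7% in X04-positive cells. Leaving out a library gave 45.7% to 52.7%, 59.1% to 61.9% and 17.6% to 18.8%. The 3 group differences kept their signs, at 7.80 to 14.8, −43.7 to −40.9 and −34.5 to −27.5 points leaving out a library. Both 5xFAD groups against WT gave −17.4 to −2.59. The difference of lost from kept sites, −34.8, −26.2 and −35.9 points, moved to −13.9, −7.59 and −15.3 within rank bins, to −12.8, −6.52 and −13.6 with a summit within 200 bp as well, and to −13.4, −6.80 and −13.8 with lists cut to the shortest as well; these 2 were chosen after seeing the data. Leaving out a library it was −36.5 to −33.1, −26.5 to −25.9 and −37.3 to −34.5. Sites near gene ends were 3.79% within 1 kb and 16.9% within 5 kb. Genes nearest to a lost site were 2338 within 20 kb, and Sall1 kept 8 of its 17 sites there. With the replicate number as a block the differences were unchanged, at 11.3, −42.3 and −31.0 points, with an exact sign-flip p of 0.5, the smallest that 2 pairs allow. The labels do not say that numbers pair libraries, and correlations of same-numbered deviations were −0.015, 0.0047 and −0.0034. Motif counts in windows around summits and their alternatives were not run, because no genome was used here. Depth is unknown for these lists, and a test of 2 against 2 libraries cannot reach a p under 0.333, or of 4 against 2 under 0.0667.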
